A study of Capra hircus with 2 samples.

Results

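The miRNAs miR-204, miR-31, miR-135a, miR-135b, miR-182, miR-183 and miR-96 have been tied to the self-renewal or differentiation of spermatogonia in rodent or goat studies, and they were followed here by name in testicular cells of the goat. Every table entry whose miRNA name, without species prefix, copy number and arm suffix, was one of these 7 names was taken. This gave 48 of 4476 entries, 24 in each library, and 13 of the 1808 combinations of miRNA name and hairpin arm. The cells were primary cells from the testis of 5-month-old Saanen dairy goats, from 3 testes of 3 animals. They were released with digestive enzymes and plated overnight, and the cells that had not attached, a step meant to leave Sertoli and myoid cells behind, were sorted with magnetic beads. The CD49f-positive cells are set against the CD49f-negative cells of the same preparation. CD49f, or integrin alpha-6, is a laminin receptor by which spermatogonial stem cells are enriched, but other testicular cells carry it as well. The series text speaks of a triplicate, 1 library per group was used here, and pooling of the goats is not stated, so the differences below were not checked in replicates and carry no p-value.

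MicroRNAs are cut from hairpin precursors and guide Argonaute proteins to messenger RNAs, mostly through base pairing of the seed, bases 2 to 8 of the mature strand. A hairpin can give a strand from its 5′ side, the 5p arm, and another from its 3′ side, the 3p arm, and usually 1 of them dominates. In mammals miR-183, miR-96 and miR-182 are made from 1 shared transcript and are best known from sensory organs such as the retina and inner ear. miR-204 lies within an intron of TRPM3 in mammals. miR-135a has been described in rat spermatogonial stem cells as a repressor of FOXO1, a transcription factor of these cells. miR-135b is its paralogue, and miR-31 lies in a region often deleted in human tumours.

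The sequences below are the most abundant ones that the deposited files list for the 5p arms, identical in both libraries unless stated. They are shown because miRNAs with the same seed can share targets. Seeds are in capitals. miR-204 and miR-211 share the seed TCCCTTT, and miR-135a and miR-135b the seed ATGGCTT.
miR-204-5p: tTCCCTTTgtcatcctatgcct
miR-211-5p: tTCCCTTTgtcatcctatgccc
miR-135a-5p: tATGGCTTtttattcctatgtga
miR-135b-5p: tATGGCTTttcattcctatgtga
miR-96-5p: tTTGGCACtagcacatttttg
miR-1271-5p, as listed in the CD49f-positive library: cTTGGCACctagtaagtact
miR-182-5p: tTTGGCAAtggtagaactcac
miR-183-5p: tATGGCACtggtagaattcact
miR-31-5p: aGGCAAGAtgctggcatagctgt
miR-96 and miR-1271 share the seed TTGGCAC. The other miRNAs of the miR-183 cluster each had a seed of their own, TTGGCAA for miR-182 and ATGGCAC for miR-183, as had miR-31 with GGCAAGA. The listed miR-135b-5p sequence differed from that of miR-135a-5p by T11C, with positions counted from 1 at the 5′ end of the mature strand and the base of miR-135a first.

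In the files' coordinates, for a goat build not given in the sources used here, the miR-183 hairpin lay on the minus strand of chromosome 4 at 91111875 to 91111984, that of miR-96 at 91111628 to 91111730 and that of miR-182 at 91107256 to 91107359. The gap was 144 bases between miR-183 and miR-96 and 4268 bases between miR-96 and miR-182. miR-204 lay on chromosome 8 at 45607900 to 45608005 (minus strand) and miR-31 on chromosome 8 at 22027512 to 22027616 (plus strand). miR-135a had a hairpin on chromosome 22 at 48381220 to 48381309 and one on chromosome 5 at 59624303 to 59624433, and miR-135b lay on chromosome 16 at 2574492 to 2574596. The RefSeq annotation of assembly ARS1.2, used for neighbouring genes only, held 6 of the 7 names. It placed miR-204 within TRPM3, miR-135a between DNAH1 and GLYCTK, miR-135b between LEMD1 and CDK18, and the miR-183 cluster between UBE2H and NRF1. The hairpins' GC content lay between 34.4% for the miR-135a copy on chromosome 5 and 55.8% for miR-182.

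The CD49f-positive library held 8196507 reads under miRNA names and the CD49f-negative library 3064462, which makes the positive one 2.67 times deeper. Levels are given as RPM, the reads per 1000000 of these named reads, with no scaling for length since a read spans a whole mature strand. Of the marker lists of other cells, only the meiotic and post-meiotic one and the epithelial one had every measured arm lower in the CD49f-positive library. The counts below stand beside 24.8% lower and 2.01% higher over all 298 measured arms. With scaling by trimmed means (TMM) these shares were 13.4% and 9.06%. The summed level of the meiotic and post-meiotic list, the miR-34b/c and miR-449 arms, was 22530 RPM in the CD49f-positive library, against 113729 in the CD49f-negative library, and 7 of its 7 measured arms were at least 2-fold lower, with TMM as well. The endothelial miR-126 stood at 14349 RPM in the positive library and 7551 RPM in the negative one, with 0 of 2 arms lower or higher, and with TMM both arms, miR-126-3p (1.37) and miR-126-5p (1.43), were called higher. The smooth muscle, myoid and fibroblast list stood at 230395 RPM in the positive library and 195026 RPM in the negative one, with 2 of 8 arms lower, or with TMM 0 lower and 1 higher (miR-145-3p, 1.01). That sum is mostly miR-143-3p, without which it was 9156 RPM in the positive library and 10796 RPM in the negative one, and the median log2 ratio of the list was -0.21 (0.24 with TMM). Sertoli cell miRNAs stood at 1913 RPM in the positive library and 2959 RPM in the negative one, with 1 of 4 arms lower, or 0 with TMM. White blood cell miRNAs, with 0 of 5 arms lower and with TMM 1 higher (miR-155-5p, 1.04), stood at 616 RPM in the positive library and 926 RPM in the negative one. Red blood cell miRNAs, with 0 of 3 arms lower, stood at 2963 RPM in the positive library and 3716 RPM in the negative one. No read stood under the name miR-451a, but miR-451-5p had 1607 RPM in the positive library and 1966 RPM in the negative one. Epithelial miRNAs stood at 69.2 RPM in the positive library and 248 RPM in the negative one, without a read for miR-205. Of their measured arms 2 of 2 were lower, with TMM as well. Among these, miR-375-3p had 35.4 RPM in the positive library and 151 RPM in the negative one, with 0% of its reads at a known hairpin. The list held the name miR-203 but not miR-203a, whose 3p arm had 76 reads in the positive and 58 in the negative library (log2 ratio -1.03). No miRNA marker of undifferentiated spermatogonia was used, so the labelled enrichment was not checked from these data. The part of these other cells in the results below was not tested, and fewer cells of a type and less miRNA per cell cannot be told apart in such libraries.

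Together the 7 miRNAs made up 0.0529% of the named reads in CD49f-positive cells (529 RPM), against 0.102% in CD49f-negative cells (1022 RPM). On the log2 scale the share in CD49f-positive cells over that in CD49f-negative cells was -0.95, with a 95% interval of -1.02 to -0.88. Intervals of ratios are exact conditional binomial (Clopper-Pearson) ones and show counting error alone, because the reads carry no molecular identifiers and PCR copies are not independent. miR-204 supplied 81.6% of these reads in the CD49f-positive library, against 78.0% in the CD49f-negative library. Without it the remaining 6 miRNAs stood at 97.2 RPM in CD49f-positive cells and 224 RPM in CD49f-negative cells, with a log2 ratio of -1.21 (-1.36 to -1.06).

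**Figure D1:**
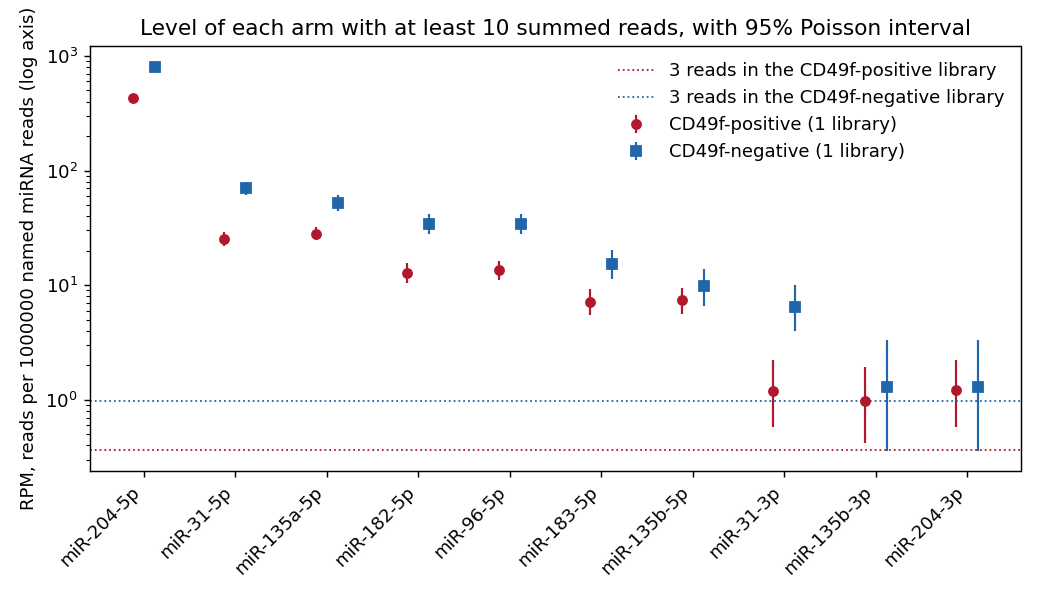
RPM (reads per 1000000 named miRNA reads) on a log axis for the arms with at least 10 summed reads, in CD49f-positive cells (circles) and CD49f-negative cells (squares), 1 library each. Bars are exact 95% Poisson intervals (counting error only) and dotted lines mark 3 reads in each library. The 5p arms of miR-204, miR-31, miR-135a, miR-182, miR-96 and miR-183 lie lower in CD49f-positive cells with bars that do not overlap, and those of miR-135b overlap.

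Of the 13 arms, 6 had at least 100 reads summed over both libraries and were measured against a size rule. An arm was called lower or higher where its share differed at least 2-fold and the interval left out equal shares. The 5p arms of miR-31, miR-182, miR-96 and miR-183 were called lower in CD49f-positive cells, 4 of 6, and none was called higher. Over all names 24.8% of 298 measured arms were called lower (74) and 2.01% higher (6). The median log2 ratio was -1.22 over the 6 arms and -0.43 over all 298. With scaling by trimmed means (TMM), which raised every log2 ratio by 0.45, 40 arms were lower (13.4%) and 27 higher (9.06%). miR-31-5p was then the only one of the 6 still called lower, and the medians were -0.77 and 0.02. With the median of ratios, which raised them by 0.60, no arm of the 6 was called, beside 9.4% lower and 11.4% higher over all names. Reads with no mismatch left 5 of the arms measured and 3 called lower, beside 21.5% lower and 1.65% higher over all names, and entries at known hairpins gave 4 of 6 lower, beside 22.4% lower and 0.877% higher.

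**Figure D2:**
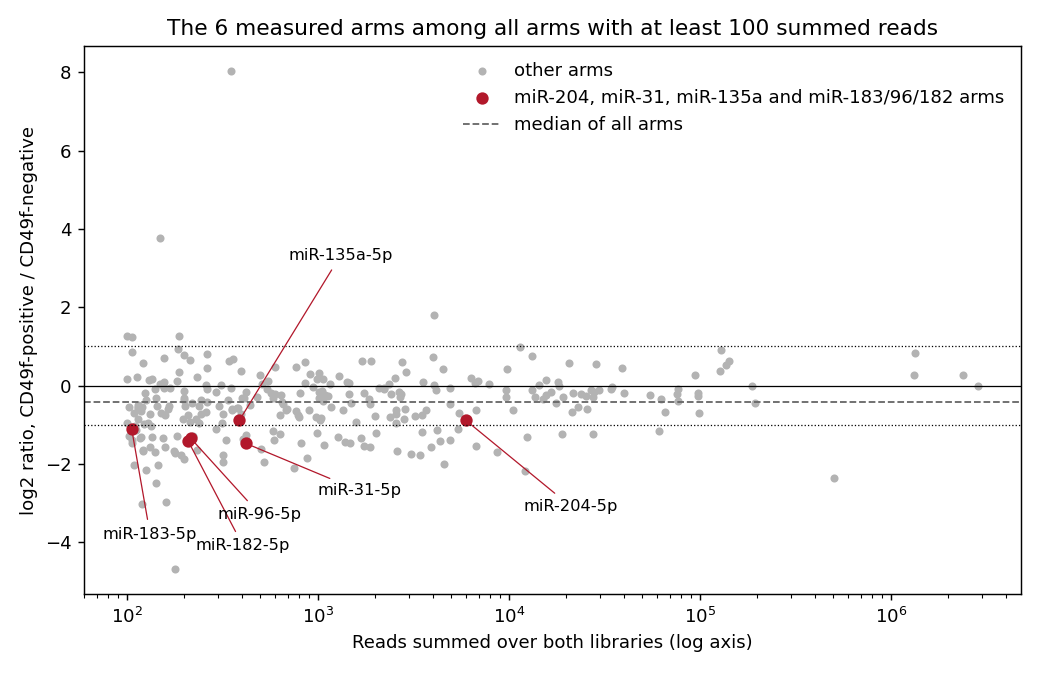
Log2 ratio of shares, CD49f-positive over CD49f-negative, against reads summed over both libraries (log axis) for the 298 arms with at least 100 reads. Dotted lines mark 2-fold and the dashed line the median of -0.43. The 6 labelled arms lie between -1.47 and -0.89, all under that median.

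miR-204-5p was by far the most abundant of the 7, ranking 69th among all arms in CD49f-positive cells and 62nd in CD49f-negative cells. It had 3531 reads in the CD49f-positive library, or 431 RPM, and 2440.5 reads in the CD49f-negative library, or 796 RPM. The share was 1.85-fold lower in CD49f-positive cells (log2 ratio -0.89, -0.96 to -0.81), which did not reach the 2-fold rule, and the log2 ratio was -0.44 with TMM. Of the 298 measured arms 83 had a lower ratio. The narrow interval reflects the many reads and says nothing of other animals.

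The reads under miR-204-5p also differed in how well they matched the hairpin. In the CD49f-positive library 3222 reads, 91.2% (90.3 to 92.2), had no mismatch, against 1903 reads, 78.0% (76.3 to 79.6), in the CD49f-negative library. The corresponding shares over all named reads were 67.3% in the positive library and 64.0% in the negative one. Reads with no mismatch had a log2 ratio of -0.66 (-0.74 to -0.58) on the same totals, and the mismatched reads, 309 in the positive and 537.5 in the negative library, one of -2.22 (-2.43 to -2.01). The gap between the libraries was therefore larger among mismatched reads, and a total over perfect reads alone (-0.73) puts miR-204-5p nearer to equal shares. The single sequence printed above had 2948 copies in CD49f-positive cells and 1644 copies in CD49f-negative cells, a log2 ratio of -0.58 (-0.66 to -0.49).

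The seed relative miR-211-5p could not be fully separated from miR-204-5p in these files. It had 166.5 reads in CD49f-positive cells, against 163.5 reads in CD49f-negative cells, with a log2 ratio of -1.39 (-1.71 to -1.07), and was called lower. Its listed sequence differed from the goat miR-204 hairpin by T22C and from the goat miR-211 hairpin by T17A, the base of the hairpin first, so it stands 1 mismatch from each. That sequence had 174 copies in the CD49f-positive library, against 231 in the CD49f-negative library, more than all reads under miR-211-5p, and its log2 ratio was -1.83 (-2.12 to -1.54). Only 62 reads under miR-211-5p in the positive library and 19 in the negative one had no mismatch. With the positive library 2.67 times deeper, the share of these perfect reads was not lower in CD49f-positive cells. The call of miR-211-5p therefore rests on mismatched reads. With the miR-211-5p reads added, miR-204-5p had a log2 ratio of -0.91 (-0.99 to -0.84). The 3p arm of miR-204 had 10 reads in CD49f-positive cells, against 4 reads in CD49f-negative cells, so the 5p arm made up 99.7% of the hairpin's reads in the positive library and 99.8% in the negative one.

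miR-31-5p had the lowest ratio of the 6 measured arms over all reads, and miR-182-5p over reads with no mismatch. It had 206.4 reads in CD49f-positive cells, or 25.2 RPM, and 214.2 reads in CD49f-negative cells, or 69.9 RPM, and so nearly the same number of reads in a library 2.67 times deeper. Its share was 2.78-fold lower in CD49f-positive cells (log2 ratio -1.47, -1.76 to -1.19), or -1.03 with TMM, while the value of -0.87 under median-of-ratios scaling ends the call. Of the 298 arms 36 had a lower ratio. Mismatches were common in both libraries, since 58.7% of its reads in the CD49f-positive library and 51.4% of those in the CD49f-negative library had none. Over reads with no mismatch, 121 in the positive and 110 in the negative library, the log2 ratio was -1.36 and the arm was still called lower.

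The 3p arm of miR-31 was found as well, with 9.7 reads in CD49f-positive cells, against 19.6 reads in CD49f-negative cells. Its log2 ratio of -2.40 (-3.68 to -1.26) rests on few reads and had the direction of the 5p arm under every scaling tried. The 5p arm held 95.4% (91.7 to 97.8) of the hairpin's reads in CD49f-positive cells, against 91.5% (87.1 to 94.7) in CD49f-negative cells, with intervals that overlap. A fragment of 15 bases was listed under both miR-31 and miR-31a.

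miR-135a-5p, whose rat counterpart represses FOXO1, had 230 reads in CD49f-positive cells, or 28.0 RPM, and 159 reads in CD49f-negative cells, or 51.8 RPM. Its share was 1.85-fold lower in CD49f-positive cells (log2 ratio -0.89, -1.18 to -0.59), short of the 2-fold rule, and -0.44 with TMM. With the median of ratios the interval took in equal shares (-0.59 to 0.01). Its reads matched well, with no mismatch in 93.9% of them in the positive library and 90.6% in the negative one. The listed sequence fits both miR-135a hairpins, and the authors split its reads between the chromosome 22 and chromosome 5 copies. The 3p arm was placed at the chromosome 5 copy alone, with 7 reads in CD49f-positive cells and 2 reads in CD49f-negative cells, of which 6 in the positive and 1 in the negative library had no mismatch.

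The paralogue miR-135b-5p was the least abundant 5p arm in CD49f-negative cells. It had 60.3 reads in CD49f-positive cells (7.36 RPM), against 30.3 reads in CD49f-negative cells (9.90 RPM), which is under the minimum of 100 reads. The log2 ratio of -0.44 (-1.07 to 0.26) took in equal shares and stood at 0.01 with TMM and 0.16 under median-of-ratios scaling, so no direction can be given. miR-135a-5p had 3.81 reads for each read of miR-135b-5p in CD49f-positive cells, against 5.23 in CD49f-negative cells. As shares of both arms together these were 79.3% (74.2 to 83.8) in the positive library and 84.1% (78.1 to 89.0) in the negative one, and the intervals overlap. Over reads with no mismatch there were 6.17 in the positive library and 8 in the negative one. The counts of miR-135b-5p hold fractions, so some of its reads were split with other hairpins. The 3p arm of miR-135b had 8 reads in CD49f-positive cells and 4 reads in CD49f-negative cells.

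The miR-183, miR-96 and miR-182 hairpins together had 276 reads in CD49f-positive cells, or 33.7 RPM, and 259 reads in CD49f-negative cells, or 84.5 RPM (log2 ratio -1.33, -1.58 to -1.08). Each of the 5p arms was called lower in CD49f-positive cells with the read total, and none with TMM. miR-182-5p had 105 reads in each library, or 12.8 RPM in CD49f-positive cells, against 34.3 in CD49f-negative cells, and was 2.67-fold lower (log2 ratio -1.42, -1.82 to -1.02; -0.97 with TMM). miR-96-5p, whose seed mutations cause hearing loss in mouse and human, had 111 reads in CD49f-positive cells (13.5 RPM) and 105 reads in CD49f-negative cells (34.3 RPM). It was 2.53-fold lower (log2 ratio -1.34, -1.74 to -0.94; -0.89 with TMM).

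miR-183-5p was the scarcest 5p arm of the cluster, with 59 reads in CD49f-positive cells (7.20 RPM), against 47 reads in CD49f-negative cells (15.3 RPM). It was 2.14-fold lower (log2 ratio -1.09, -1.67 to -0.51; -0.65 with TMM), and its 106 reads lie just above the minimum. Over reads with no mismatch, 40 in the positive and 33 in the negative library, it fell under that minimum, which ends the call, at a log2 ratio of -1.22. Of the 298 arms 41 had a ratio below that of miR-182-5p, 49 below that of miR-96-5p and 70 below that of miR-183-5p.

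The intervals of the shares of each arm in the cluster overlapped between the libraries, and these shares do not depend on the scaling. miR-183-5p made up 21.5% (16.8 to 26.8) of the cluster's 5p reads in CD49f-positive cells, against 18.3% (13.8 to 23.6) in CD49f-negative cells. miR-96-5p made up 40.4% in the positive library and 40.9% in the negative one, and miR-182-5p 38.2% in the positive library and 40.9% in the negative one. Over reads with no mismatch the shares of miR-182-5p were 46.9% in the positive library and 49.7% in the negative one, and those of miR-183-5p 19.1% in the positive library and 17.8% in the negative one. Among reads of the cluster the 3p arms were almost lacking, with 0 reads in the positive and 1 in the negative library for miR-182 and 1 in each for miR-183, and miR-96-3p had no read in either library. A count of 0 allows up to 3 reads, which is 0.366 RPM in the CD49f-positive library, against 0.979 in the CD49f-negative library. The seed relative miR-1271-5p was more abundant than miR-96-5p, with 1449 reads in CD49f-positive cells (177 RPM), 948 reads in CD49f-negative cells (309 RPM) and a log2 ratio of -0.81 (-0.93 to -0.69). miR-507-3p, which shares that seed, had 10 reads in CD49f-positive cells and 13 reads in CD49f-negative cells, with 0% of them at a known hairpin.

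The order of the 5p arms depended on whether mismatched reads were counted. Over all reads it was miR-204, miR-135a, miR-31, miR-96, miR-182, miR-135b and miR-183 in CD49f-positive cells. In CD49f-negative cells it was miR-204, miR-31, miR-135a, then miR-96 and miR-182 at the same count, miR-183 and miR-135b. Over reads with no mismatch, a comparison added after seeing the data, both libraries had 1 order, which was miR-204, miR-135a, miR-31, miR-182, miR-96, miR-183 and miR-135b. The pair of miR-31-5p and miR-135a-5p shows this. Over all reads miR-31-5p held 47.2% (42.5 to 52.1) of the pair's reads in CD49f-positive cells, against 57.4% (52.2 to 62.4) in CD49f-negative cells, with intervals that just miss each other. Over reads with no mismatch it held 35.9% (30.8 to 41.3) in CD49f-positive cells, from 121 and 216 reads, and 43.3% (37.1 to 49.6) in CD49f-negative cells, from 110 and 144 reads. miR-31-5p then lay under miR-135a-5p in both libraries, and the intervals of the libraries overlapped. Its place above miR-182-5p over reads with no mismatch was within counting error. Of that pair miR-31-5p held 55.3% (48.4 to 62.0) in the positive library and 54.5% (47.3 to 61.5) in the negative one. miR-204-5p had 17.1 reads for each read of miR-31-5p in CD49f-positive cells, against 11.4 in CD49f-negative cells, or 26.6 in the positive and 17.3 in the negative library over reads with no mismatch. miR-96-5p and miR-182-5p did not differ beyond counting error over all reads, but over reads with no mismatch miR-96-5p held 42.0% (34.5 to 49.8) of the pair in the positive library and 39.5% (31.6 to 47.7) in the negative one. miR-183-5p and miR-135b-5p did not differ beyond counting error over all reads in either library, and over reads with no mismatch miR-183-5p held 53.3% (41.4 to 65.0) in the positive library and 64.7% (50.1 to 77.6) in the negative one.

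**Figure D3:**
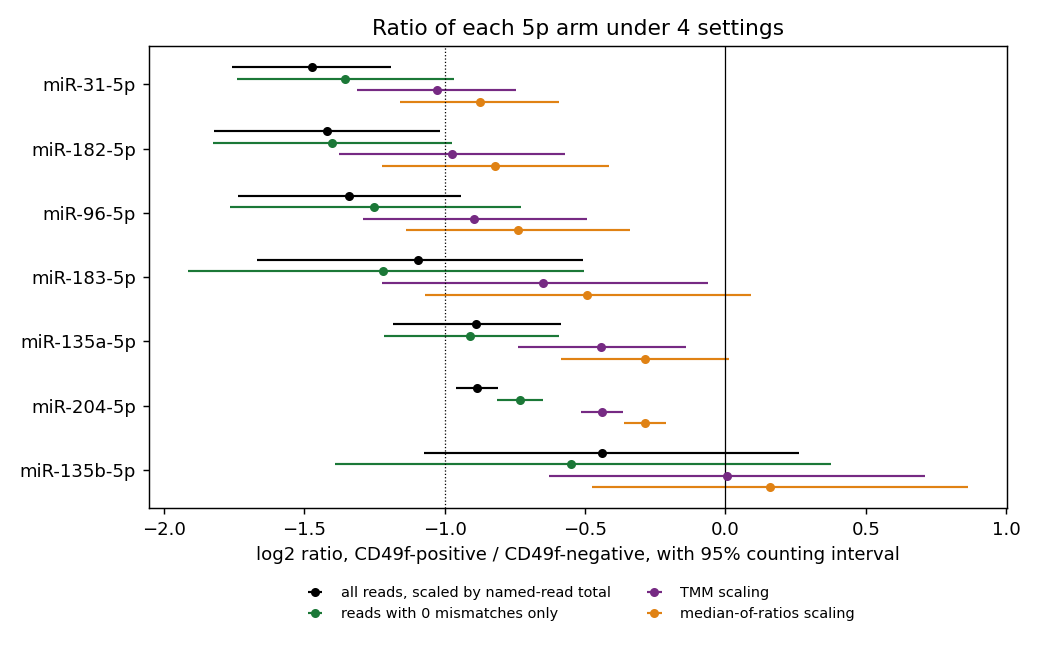
Log2 ratio of the shares in CD49f-positive over CD49f-negative cells for each 5p arm, with exact 95% counting intervals, for all reads scaled by the read total, reads with no mismatch, TMM scaling and median-of-ratios scaling. The dotted line marks 2-fold. TMM and the median of ratios move all arms by the same amount, so only the reads with no mismatch can change their order. miR-31-5p is lowest over all reads (-1.47) and miR-182-5p over reads with no mismatch (-1.40, beside -1.36 for miR-31-5p), and miR-135b-5p crosses equal shares.

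**Figure D4:**
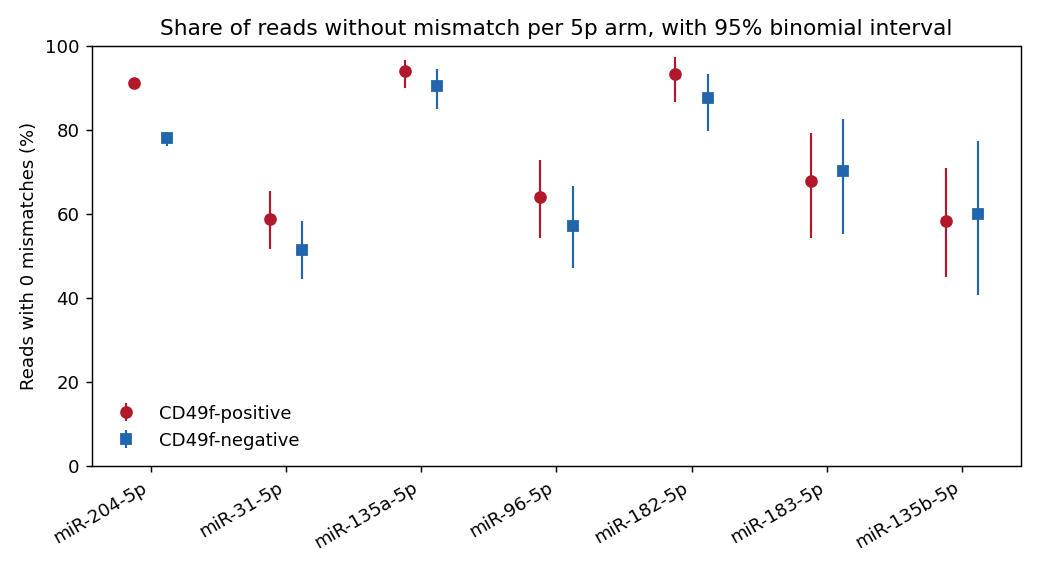
Percent of reads with no mismatch for each 5p arm in CD49f-positive cells (circles) and CD49f-negative cells (squares), with exact 95% binomial intervals. Only for miR-204-5p (91.2% in CD49f-positive and 78.0% in CD49f-negative cells) do the intervals of both libraries lie apart.

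Nearly all reads of the 7 miRNAs came from known hairpins placed on the genome, 99.3% in CD49f-positive cells, against 99.4% in CD49f-negative cells, from 12 entries each. The other 12 entries of each library held 30.1 reads in the positive library and 19.8 reads in the negative one. They were mostly short fragments matched to hairpins of other mammals, among them 7 of 8 reads of miR-135b-3p in CD49f-positive cells and all 4 in CD49f-negative cells. The share of reads with no mismatch overlapped between the libraries for miR-31-5p, miR-135a-5p, miR-135b-5p, miR-182-5p, miR-183-5p and miR-96-5p. It was lowest for miR-31-5p in CD49f-negative cells (51.4%) and highest for miR-135a-5p in CD49f-positive cells (93.9%).

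Other miRNAs tied to spermatogonia in rodent, pig or goat studies were set beside these. Of 21 names 20 had reads, miR-544a being the exception although miR-544 had reads, and 22 of their 37 arms had at least 100 reads. With the read total 6 of the 22 were called lower and none higher, beside 24.8% lower and 2.01% higher over all names. The median log2 ratio was -0.36, near the -0.43 over all arms. With TMM 2 were lower and 3 higher, beside 13.4% and 9.06% over all names, and the median was 0.09. The 3 higher ones were miR-10b-5p, miR-221-5p at 1.06 (0.62 with the read total) and miR-224-5p at 1.17 (0.73 with the read total). miR-10b-5p, the most abundant, had 135715 RPM in CD49f-positive cells, against 75520 in CD49f-negative cells, with a log2 ratio of 0.85 (1.29 with TMM). miR-21-5p had 15647 RPM in CD49f-positive cells and 21429 RPM in CD49f-negative cells, a log2 ratio of -0.45 (-0.01 with TMM). miR-30a-5p had 5222 RPM in CD49f-positive cells and 6564 RPM in CD49f-negative cells, a log2 ratio of -0.33 (0.12 with TMM).

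The called arms of that list were miR-34c-5p, at -2.35 with 21258 RPM in CD49f-positive cells and 108703 RPM in CD49f-negative cells, and miR-34c-3p at -2.02. Both also stand in the meiotic list, and both were still called with TMM. miR-202-5p was at -1.38 (-0.94 with TMM), miR-106a-5p at -1.33 (-0.88), miR-146b-5p at -1.30 (-0.85) and miR-20a-5p at -1.24 (-0.80). These calls include mismatched reads. Of the miR-106a-5p reads only 97.5 of 873 in the positive library and 76 of 818 in the negative one had no mismatch. Over all reads miR-31-5p, at -1.47, lay below each called arm of that list except the miR-34c arms. Its interval (-1.76 to -1.19) took in the values of the others, so this order was within counting error. Over reads with no mismatch miR-31-5p had 121 in the positive and 110 in the negative library. miR-146b-5p then had 2344.5 in the positive and 3040.5 in the negative library, and so the lower ratio of the pair. Levels of the 7 miRNAs were far under those of the abundant members of that list, miR-204-5p included.

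For each measured arm the arms of similar read number with the nearest log2 ratio were sought. With 2 libraries this likeness is that of a single ratio, over all reads with mismatched ones included. For miR-204-5p they were miR-143-5p at -0.76, miR-1246-3p at -0.74 and miR-342-3p at -0.70, among 33 candidates. All 3 lay outside the interval of miR-204-5p (-0.96 to -0.81), and miR-1246-3p had 0% of its reads at a known hairpin. For miR-31-5p they were miR-335-5p at -1.47 (401 reads in the positive and 414 in the negative library), miR-211-5p at -1.39 and miR-2411-3p at -1.38, among 72. For miR-135a-5p they were miR-202-3p at -0.86, miR-196a-5p at -0.92 and miR-425-5p at -0.85, among 77. For miR-182-5p they were miR-211-5p and miR-214-5p, both at -1.39, and miR-323a-3p at -1.47. For miR-96-5p they were miR-9-3p at -1.34, miR-4335-5p at -1.35 and miR-2904-5p at -1.36. For miR-183-5p they were miR-215-5p at -1.14, and miR-203a-3p and miR-4531-3p, both at -1.03.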

How the data were processed

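The Illumina TruSeq small RNA kit was used on total RNA, per the labels' protocols. The authors mapped reads to miRBase hairpins of mammals, to expressed sequences and to a goat genome, per the file headers. Aligner, miRBase release and build: not given in the sources used here. The reads of each arm were deposited by the authors in the form of expected counts, with those that fit several hairpins split between them and mismatched variants included. Copies of each listed sequence are whole read counts, per the file headers. GC content of hairpins is deposited as a percent. The deposited folding energy score was not used for any result. No normalization was recorded.

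Reads were summed by name and arm over the whole table of each library. Entries without a name, 0.555% of listed reads in the positive library and 0.611% in the negative one, stayed out. Ratios are shares of named reads with 0.5 reads added to each count, and expected counts were rounded for the 95% intervals. No test was possible with 1 library per group. TMM factors (edgeR 4.0.16) and size factors (DESeq2 1.42.0), in R 4.3.3, were computed from the 592 names with at least 10 summed reads and served as scalings only. The rest was done in Python 3.11.15 with SciPy 1.17.1, pandas 2.3.3, numpy 2.4.6 and, for figures, matplotlib 3.10.9. Calling was tested on simulated counts with Poisson error and known totals. Such counts hold no PCR copies and no spread between animals, and the choice of scaling was not tested by them. The miRNAs, lists, size rule and alternatives were chosen with earlier results of these data known. Named were all arms of the 7 miRNAs, the 3 nearest arms by ratio under 2-fold apart in reads, the 4 most abundant and all called arms of the list of other spermatogonial miRNAs, seed relatives, and names sharing a listed sequence.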

Additional observations from a re-analysis of the deposited data

Results flagged for a closer look

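Entries that carry no miRNA name were left out of all comparisons. They held 45707 reads in CD49f-positive cells, against 18827 reads in CD49f-negative cells, both above 3 reads, the most that a zero count leaves possible.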

How the results depend on the processing

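With the read total 4 of the 6 measured arms were lower. TMM left 1, median-of-ratios scaling 0, and the same factors 2 and 1 when taken from names with at least 100 reads (an alternative chosen after seeing the data), and 0 with a 4-fold rule. Over all names, 74 lower and 6 higher arms became 40 and 27 under TMM, 28 and 34 under median-of-ratios scaling, and 49 and 17, or 40 and 26, with factors from names with at least 100 reads. Without the 10 most abundant miRNAs 16 were higher, at known hairpins only 2 were higher, and a 4-fold rule left 11 lower and 2 higher. A minimum of 20 reads gave 144 lower, 10 reads 159 lower and 10 higher, and no minimum 196 lower and 10 higher. For the other spermatogonial miRNAs, 6 lower and 0 higher became 2 and 3 under TMM, 2 and 4 under median-of-ratios scaling, and 3 and 2, or 2 and 3, with factors from names with at least 100 reads. A 4-fold rule left 2 lower, and without the 10 most abundant miRNAs 2 were higher. These shifts follow from the scaling or the rule itself. miR-204-5p and miR-135a-5p kept ratios below 1 under the alternatives run, from -0.91 to -0.29 for each, and neither reached 2-fold. miR-96-5p, miR-182-5p and miR-183-5p had too few copies of the listed sequence, or too small a ratio, to be called from it alone. No paired analysis was possible because each group has 1 library. Depth limits the 3p arms and miR-135b-5p most.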
